A study of Rattus norvegicus with 18 samples.

Results

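The comparison described here set the colon of 3 rats taken on day 2 after an enema of trinitrobenzene sulfonic acid (TNBS) against the colon of 6 control rats that had received saline. Its differences rest on 9 of the 18 arrays of the series, chosen by their titles alone. Control replicate 2 lacks the tissue entry that the other samples' labels carry and was kept as a control by its title. The day 2 rats had received a single rectal dose of 10 mg TNBS in 50% ethanol, and the other 9 arrays came from rats sampled on days 5, 7 and 14 after the same dose. Full-thickness colon was homogenised, so epithelium, muscle, nerves, vessels and leukocytes were read together, with 1 Affymetrix Rat Genome 230 2.0 array per sample. The labels used here give no strain, sex or age. The design has limits that bear on every value. TNBS rats had been picked on inflammatory markers (myeloperoxidase activity, loss of body weight and the ratio of colon weight to length), so neutrophil content was in part a condition of entry. No group received ethanol alone, so hapten and solvent cannot be told apart. In the sample labels the extraction entry is Trizol for TNBS samples and refers to a technical manual for controls, while the design text names Trizol and RNeasy columns for the study as a whole, so extraction and treatment cannot be told apart from the labels. The day and hour at which controls were taken are not given. Each p-value weighs a difference against the spread between samples within groups, pooled over all 18 arrays.

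All levels are log2 signals after quantile normalization across the 18 arrays, and each difference is the day 2 mean minus the control mean with its standard error (SE). A gene was called when limma's Benjamini-Hochberg adjusted p over 31042 probe sets was under 0.05, and "rose" and "fell" are used of called genes only. Each gene is read from 1 probe set, the brightest of those that carry its symbol alone. Where 3 values are given for controls, they are the lowest, the median and the highest of the 6 arrays, and the 3 day 2 values are replicates 1, 2 and 3 in that order. Scale mattered: in the deposited values the median probe set was 0.59 higher on day 2 arrays than on control arrays, against -0.01 after quantile normalization, so differences here are relative to the rest of the array. In all, 2835 probe sets were called higher (9.13%) and 3065 lower (9.87%), against 82.8% and 0.525% as deposited and 8.16% and 31.4% after centring each array on its median. Of the 3065 called lower, 162 were also called lower as deposited, 994 were below 0 there and 3064 were below the deposited median shift, and all 2835 called higher were also called higher as deposited. A call is said to have held when it was made again with each of the 9 arrays left out in turn. Unless a loss is stated beside a named gene, its call held.

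The 3 day 2 rats were not alike. On the first principal component of all 18 arrays, which took 45.4% of the variance, day 2 replicates 1, 2 and 3 stood at -14.9, 32.1 and 37.0, against -52.3 to -38.6 for the 6 controls. Replicate 1 thus lay nearest to the controls.

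As background, TNBS dissolved in ethanol is used to model acute colitis: ethanol opens the mucosal barrier and TNBS modifies tissue proteins so that they are recognised as foreign. In the days after such an injury, neutrophils and monocytes enter the wall, plasma proteins leak and clot, dying epithelium is shed, and surviving cells raise stress programmes, among them the unfolded protein response, which enlarges the folding capacity of the endoplasmic reticulum, and the heat shock response, which does the same for cytosol and mitochondria. Colon epithelium normally burns butyrate, absorbs sodium and exchanges chloride for bicarbonate, and many of its genes follow a daily rhythm.

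On day 2, 1618 of 14217 genes were called higher (11.4%) and 1522 were called lower (10.7%), while 702 higher calls (4.94%) and 505 lower calls (3.55%) held. These shares are the background for each gene list below, and the median difference over all genes was -0.01. Every day 2 array lay above every control array for 10.7% of genes and below every control array for 10.2%. The best-known inflammatory genes (calprotectin, chemokines, interleukins and the like) served as a yardstick: 19 of 29 rose, 15 calls held and the median was 2.17.

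Outside that yardstick list, the 12 named genes with the largest rises all belonged to calls that held. The largest difference was that of Plek, which encodes pleckstrin, a protein kinase C substrate of platelets and leukocytes. Its levels were 7.03, 9.79 and 9.72 in day 2 replicates 1 to 3, against 4.08, 4.45 and 6.21 in controls. The difference was 4.16 (SE 0.65), or 17.9-fold (adjusted p = 0.000541). Timp1, an inhibitor of matrix metalloproteinases, had 10.68, 12.24 and 11.73 on day 2 against 6.76, 7.68 and 9.25 in controls, a 13.9-fold rise (3.80, SE 0.53, adjusted p = 0.00023). Gpnmb, a transmembrane glycoprotein of phagocytes, had 8.85, 10.58 and 10.33 on day 2 against 5.87, 6.24 and 6.55 in controls, a 12.7-fold rise (3.67, SE 0.37, adjusted p = 1.27e-05). In each of these genes replicate 1 was the lowest of the 3 day 2 arrays. Hmox1, the haem-degrading oxygenase, had 7.95, 9.26 and 8.86 on day 2 against 5.07, 5.95 and 6.11 in controls, a rise of 2.87 (SE 0.34, adjusted p = 5.51e-05).

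The other 8 of these genes join defence proteins with markers of myeloid cells. Slfn4, a schlafen gene of activated myeloid cells, rose by 3.35 (SE 0.49), although its other probe set differed by -0.19 and was not called. The central complement protein gene C3 rose by 3.19 (SE 0.58), and Stfa2l2, which encodes a stefin, a class of inhibitors of cysteine proteases, rose by 3.11 (SE 0.51). Slpi, a secreted inhibitor of neutrophil elastase, rose by 2.98 (SE 0.45) and Chi3l1, a chitinase-like glycoprotein, by 2.94 (SE 0.62). Tyrobp, a signalling adaptor of myeloid cells, rose by 2.90 (SE 0.38), Vcan, the matrix proteoglycan versican, by 2.88 (SE 0.58) and Cd68, a macrophage lysosomal glycoprotein, by 2.55 (SE 0.38). Adjusted p for these 8 lay between 0.000156 and 0.00429.

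Among the 12 largest falls, also chosen for separate groups, were genes of absorptive epithelium, mast cells and the clock. Rbp7, which encodes a retinol-binding protein, had 5.00, 4.31 and 4.04 on day 2 against 6.90, 7.65 and 7.76 in controls. The fall was 8.01-fold on average (-3.00, SE 0.45, adjusted p = 0.000375). Amn, the membrane anchor of the intestinal vitamin B12 receptor, had 5.42, 4.60 and 4.53 on day 2 against a narrow 7.01, 7.18 and 7.36 in controls, a 5.03-fold fall (-2.33, SE 0.22, adjusted p = 6.67e-06). Further falls that held were those of Mcpt1, a mast cell protease (-2.56, SE 0.61), Nr1d1, the clock repressor REV-ERB alpha (-2.13, SE 0.36), and Pck1, the gluconeogenic carboxykinase (-2.0, SE 0.43). Ptprr, a receptor phosphatase (-1.86, SE 0.36), Crym, a thyroid hormone-binding crystallin (-1.81, SE 0.32), and Arg2, the mitochondrial arginase (-1.78, SE 0.36), also fell. The resistin-like gene Retnla had the largest fall of these 12 (-4.10, SE 1.26, adjusted p = 0.0327), but its control values ran from 10.27 to 12.80, and the call ended without any single day 2 array or control replicate 4, 5 or 6, with adjusted p between 0.0502 and 0.144. Calls also ended without day 2 replicate 2 or 3 for Drc3, a component of the ciliary dynein regulatory complex (-2.51, adjusted p = 0.0539 without either), for Scin, the actin-severing protein scinderin (-2.08, adjusted p = 0.0778 without replicate 2 and 0.0999 without replicate 3), and for Rasgef1b, a guanine nucleotide exchange factor (-1.77, adjusted p = 0.0654 and 0.0541).

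**Figure D1:**
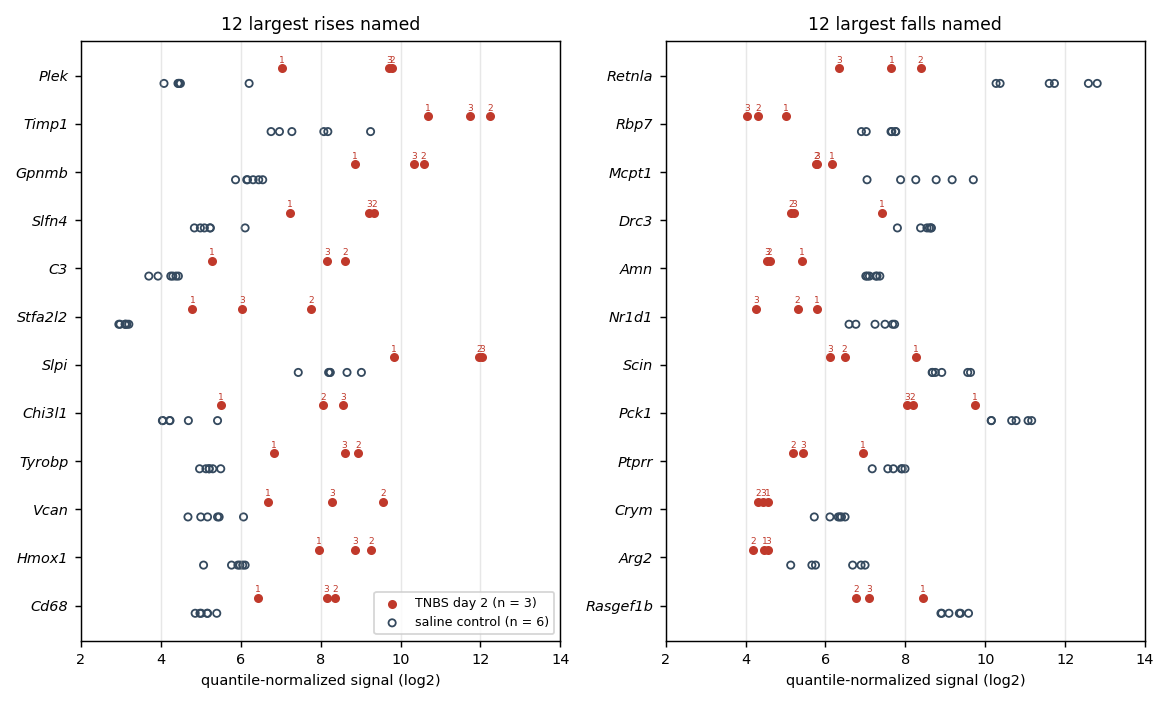
Log2 signal after quantile normalization (horizontal axis) of the 12 named genes with the largest rises and the 12 with the largest falls, the yardstick inflammatory list left out; filled points are the 3 day 2 arrays with their replicate numbers and open points the 6 control arrays. The genes were chosen among called genes whose groups do not overlap, so the separation in all 24 follows from the choice, and in Plek the day 2 points run from 7.03 to 9.79 against 4.08 to 6.21 in controls.

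Genes of the NF-kB and STAT3 response, the transcription factors that carry most inflammatory signals, and of their feedback rose widely: 15 of 26 measured members were called higher and 1 lower, 7 higher calls held, and the median was 1.02. Nfkb2, an NF-kB subunit, rose by 1.15 (SE 0.19), and Bcl3, a nuclear partner of NF-kB, by 1.21 (SE 0.23). Il4r, the receptor chain for interleukins 4 and 13, had 7.13, 8.12 and 8.11 on day 2 against 6.00, 6.33 and 6.61 in controls, a rise of 1.44 (SE 0.23, adjusted p = 0.000562). Lrg1, an acute-phase glycoprotein, rose by 2.30 (SE 0.42) and the transcription factor Cebpd by 1.99 (SE 0.37), though 1 of the 2 other Cebpd probe sets differed by -0.20. The interleukin 6 receptor Il6r rose by 1.58 (SE 0.31) and the nuclear NF-kB regulator Nfkbiz by 1.54 (SE 0.33), with its other probe set at 0.12 and not called. The lone fall was Socs1, an inhibitor of cytokine signalling, at -0.32 (SE 0.09), which was 0.50 higher as deposited. Its call ended without day 2 replicate 1 (adjusted p = 0.0687) or 3 (0.123), and its other probe set differed by 0.12. Socs3, the main brake on STAT3, differed by 0.86 (SE 0.33) and was not called (adjusted p = 0.0761).

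Immediate early genes, which answer a stimulus within minutes, stood near the background on day 2, with 3 of 29 called higher, 1 lower and a median of 0.01. Myc, which drives growth and ribosome synthesis, was the only 1 whose call held: it had 7.26, 7.62 and 7.65 on day 2 against 6.35, 6.67 and 6.88 in controls, a rise of 0.87 (SE 0.13, adjusted p = 0.00033). Ier3, a stress-induced survival gene, rose by 0.90 (SE 0.29, adjusted p = 0.0425), a call lost in 8 of the 9 fits with 1 array left out, all but the one without day 2 replicate 1 (adjusted p 0.0543 to 0.223). Dusp2, a phosphatase of MAP kinases, rose by 1.51 (SE 0.40), a call that ended without day 2 replicate 3 (adjusted p = 0.111). Klf4, a factor of differentiated epithelium, fell by 0.79 (SE 0.27, adjusted p = 0.0463), a call that held only without control replicate 2 or day 2 replicate 1 and otherwise gave 0.0518 to 0.282. Fos and Jun, the AP-1 partners, differed by -0.70 (SE 0.40) and -1.05 (SE 0.42) and were not called (adjusted p = 0.237 and 0.0894). The other Fos probe set differed by 0.41, also not called.

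The antioxidant list, targets of NRF2 and the enzymes that supply NADPH and glutathione, had 10 of 26 members called higher and 1 lower, with 6 and 1 calls that held and a median of 0.53. Taldo1, transaldolase of the pentose phosphate pathway, was nearly the same in the 3 day 2 rats, at 10.90, 10.97 and 10.94, against 9.77, 9.85 and 10.16 in controls, a 2.03-fold rise (1.02, SE 0.10, adjusted p = 1.09e-05). Pgd, the NADPH-yielding dehydrogenase of the same pathway, rose by 0.86 (SE 0.15), Gss, glutathione synthetase, by 0.94 (SE 0.16), and Sod2, the mitochondrial superoxide dismutase, by 1.30 (SE 0.26). Gpx2, the glutathione peroxidase of gut epithelium, had 12.27, 12.38 and 12.30 on day 2 against 10.90, 11.28 and 12.10 in controls and rose by 0.97 (SE 0.23, adjusted p = 0.00783). Its 3 day 2 values were close together, replicate 1 included. Txn1, thioredoxin, went the other way, with 13.09, 12.42 and 12.82 on day 2 against 13.32, 13.36 and 13.50 in controls (-0.61, SE 0.13, adjusted p = 0.00448). Nqo1, a quinone reductase and common NRF2 readout, differed by 1.04 (SE 0.44) and was not called (adjusted p = 0.114).

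Metal-handling genes had 7 of 24 members called higher, 1 lower and a median of 0.29. Hp, the haemoglobin scavenger haptoglobin, rose by 1.63 (SE 0.35). Mt3, a metallothionein best known from brain, fell by 0.99 (SE 0.17). Other rises were those of Steap4, a metalloreductase (1.32, SE 0.37), which ended without day 2 replicate 2 (adjusted p = 0.0687) or 3 (0.137), and of Slc30a1, the zinc exporter (0.59, SE 0.18), which ended without control replicate 2 (0.0506) or day 2 replicate 1 (0.0782) or 3 (0.104). Mt2A, a zinc-inducible metallothionein, rose by 1.32 (SE 0.45, adjusted p = 0.0496), and that call survived only without day 2 replicate 1 (0.0605 to 0.218 in the other 8 fits).

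For hypoxia and glycolysis 9 of 29 members were called higher and 0 lower, with 2 calls that held and a median of 0.10 that became -0.22 under median centring, where the median of all probe sets was -0.18. These were Hk2, the inducible hexokinase, with 7.21, 6.54 and 7.16 on day 2 against 4.93, 5.31 and 5.68 in controls (1.68, SE 0.31, adjusted p = 0.00193), and Pgam1, phosphoglycerate mutase (0.60, SE 0.11). Angptl4, a lipoprotein lipase inhibitor, rose 5.65-fold (2.50, SE 0.59), a call lost without day 2 replicate 2 (adjusted p = 0.066). Ddit4, an mTOR inhibitor, rose by 1.47 (SE 0.38) and lost its call without day 2 replicate 3 (0.111). Egln1, the oxygen sensor that marks HIF for destruction, rose by 0.37 (SE 0.10) and lost it without day 2 replicate 2 (0.0562) or 3 (0.0527), and its other probe set differed by 0.15. Vegfa differed by -0.43 (SE 0.17, 0.15 as deposited), its other probe set by 0.51, and Slc2a1, the GLUT1 glucose transporter, by 0.10 (SE 0.16). Neither of these classic HIF targets was called (adjusted p = 0.091 and 0.708).

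The endoplasmic reticulum chaperones are shown with their promoters, since 4 of the members that rose hold the same element there. Of 27 measured genes of the unfolded protein response, 6 were called higher and 1 lower, with 5 higher calls that held and a median of 0.28. Under median centring that median was 0.00, where the median of all probe sets was -0.18. The promoter windows below, from RefSeq (assembly GRCr8), run from 250 bases before to 50 bases after the gene start and are printed 5′ to 3′ on the gene's strand. Capitals mark the endoplasmic reticulum stress response element, searched on both strands as CCAAT and CCACG with 9 free bases between them; the motifs searched were chosen with the members' values known. The windows are chr19:40213117-40213416 (plus strand) for Calr, chr7:23012244-23012543 (minus strand) for Hsp90b1, chr7:121789134-121789433 (plus strand) for Creld2 and chr10:35157808-35158107 (minus strand) for Canx.
Calr: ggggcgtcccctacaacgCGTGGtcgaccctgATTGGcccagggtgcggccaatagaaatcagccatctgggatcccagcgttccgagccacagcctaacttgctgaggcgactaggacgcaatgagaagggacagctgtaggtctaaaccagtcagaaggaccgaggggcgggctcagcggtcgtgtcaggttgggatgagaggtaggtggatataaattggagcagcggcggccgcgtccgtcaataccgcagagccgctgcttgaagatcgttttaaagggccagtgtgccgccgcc
Hsp90b1: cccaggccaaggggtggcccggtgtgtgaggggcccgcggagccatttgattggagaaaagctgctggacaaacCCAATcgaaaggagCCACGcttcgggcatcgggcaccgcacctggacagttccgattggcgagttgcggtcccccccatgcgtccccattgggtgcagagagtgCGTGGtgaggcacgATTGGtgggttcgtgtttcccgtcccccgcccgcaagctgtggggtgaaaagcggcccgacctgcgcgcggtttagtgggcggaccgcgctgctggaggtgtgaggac
Creld2: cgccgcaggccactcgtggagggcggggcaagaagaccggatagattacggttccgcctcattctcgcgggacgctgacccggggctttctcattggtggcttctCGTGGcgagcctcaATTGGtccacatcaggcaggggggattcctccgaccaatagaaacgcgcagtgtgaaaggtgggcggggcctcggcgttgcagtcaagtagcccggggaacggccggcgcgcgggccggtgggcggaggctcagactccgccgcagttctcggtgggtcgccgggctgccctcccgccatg
Canx: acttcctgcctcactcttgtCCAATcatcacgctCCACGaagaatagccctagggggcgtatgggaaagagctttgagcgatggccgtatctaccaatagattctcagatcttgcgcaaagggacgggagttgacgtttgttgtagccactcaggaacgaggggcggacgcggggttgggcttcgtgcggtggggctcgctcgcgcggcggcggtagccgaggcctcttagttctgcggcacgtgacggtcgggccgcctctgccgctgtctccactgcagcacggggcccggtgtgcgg

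This element lies in 21 of 27457 RefSeq rat promoters (0.0765%). Of the 22 list members with a promoter in the table, 8 hold it: 4 of the 5 called higher, which are the genes printed, 0 of the 1 called lower, and 4 of the 16 not called (Hspa5, Xbp1, Dnajc3 and Ero1b). A match describes the letters of the window and says nothing on whether a factor was bound.

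Calr, calreticulin, and Canx, calnexin, are the lectin chaperones that hold newly made glycoproteins until they fold. Calr had 10.28, 10.51 and 10.56 on day 2 against 9.50, 9.58 and 9.82 in controls, a 1.78-fold rise (0.83, SE 0.10, adjusted p = 9.75e-05). Canx had 10.10, 10.22 and 10.33 on day 2 against 9.55, 9.75 and 9.96 in controls (0.48, SE 0.10, adjusted p = 0.00429). For both, every day 2 array lay above every control array and replicate 1 was close to the other day 2 arrays. Hsp90b1, the reticulum's HSP90, had 11.08, 11.38 and 11.57 on day 2 against 9.96, 10.27 and 10.77 in controls (1.01, SE 0.18, adjusted p = 0.00127). Creld2, a disulfide isomerase-like protein secreted under reticulum stress, had 8.29, 8.56 and 9.22 on day 2 against 7.20, 7.44 and 7.94 in controls (1.14, SE 0.21, adjusted p = 0.00171). The groups were again separate in both genes.

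Pdia4, a protein disulfide isomerase whose RefSeq window lacks the element, rose the most, at 8.76, 9.09 and 9.26 on day 2 against 7.28, 7.50 and 8.21 in controls (1.39, SE 0.24, adjusted p = 0.00103). Ero1a, the oxidase that recharges such isomerases, rose by 1.05 (SE 0.24) and lost its call without day 2 replicate 2 (adjusted p = 0.0548), and its other probe set, not called, differed by 0.49. Edem1, which sends misfolded glycoproteins to degradation, fell by 0.37 (SE 0.09) but was 0.14 higher as deposited, and its call ended without day 2 replicate 2 (0.0532) or 3 (0.0646). The markers most often used for this response were not called: Hspa5, the chaperone BiP, had 10.98, 11.46 and 11.75 on day 2 against 10.77, 11.07 and 11.47 in controls (0.30, SE 0.20, adjusted p = 0.316), with overlapping groups. Ddit3, the stress factor CHOP, differed by 0.39 (SE 0.37), and Xbp1, whose spliced product binds this element, by -0.09 (SE 0.11, 0.30 as deposited).

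In the heat shock list 6 of 17 members were called higher and 0 lower, with 3 calls that held and a median of 0.34. The heat shock element, searched on both strands as GAA, TTC and GAA with 2 free bases in each gap, is in capitals in the windows of Hspe1 (chr9:64084077-64084376, plus strand) and Hsph1 (chr12:10427118-10427417, plus strand), again from RefSeq GRCr8.
Hspe1: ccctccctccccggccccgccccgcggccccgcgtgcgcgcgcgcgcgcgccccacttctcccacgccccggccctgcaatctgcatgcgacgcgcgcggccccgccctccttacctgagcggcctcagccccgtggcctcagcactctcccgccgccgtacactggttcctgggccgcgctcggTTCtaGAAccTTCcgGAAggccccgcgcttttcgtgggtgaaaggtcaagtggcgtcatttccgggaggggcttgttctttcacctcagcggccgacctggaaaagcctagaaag
Hsph1: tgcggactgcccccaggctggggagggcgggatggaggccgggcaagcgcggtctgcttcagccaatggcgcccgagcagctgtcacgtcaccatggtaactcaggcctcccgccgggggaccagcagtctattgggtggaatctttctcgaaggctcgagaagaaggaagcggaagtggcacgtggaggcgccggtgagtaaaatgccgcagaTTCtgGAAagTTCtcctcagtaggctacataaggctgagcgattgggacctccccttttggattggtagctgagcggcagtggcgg

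The element lies in 202 of 27457 promoters (0.736%). It was found in 3 of 5 list members called higher that have a promoter in the table and in 1 of 10 not called, Dnaja1. The windows of Hspd1 and Hspe1 share 211 bases and the same match, so these 2 genes are not separate instances, and matches on the 2 strands overlap.

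Hspd1 and Hspe1 encode the chaperonins HSP60 and HSP10, which fold proteins inside mitochondria. Hspd1 had 11.13, 10.94 and 11.40 on day 2 against 10.45, 10.60 and 10.75 in controls (0.56, SE 0.12, adjusted p = 0.00465). Hspe1 had 10.97, 11.16 and 11.47 on day 2 against 10.58, 10.64 and 10.84 in controls (0.52, SE 0.14, adjusted p = 0.0175), a call that ended without day 2 replicate 2 (0.0513) or 3 (0.126). Both were higher in every day 2 rat than in every control. Hsph1, the large cytosolic HSP110, had 8.24, 8.95 and 9.10 on day 2 against 7.17, 7.68 and 8.24 in controls (1.02, SE 0.28, adjusted p = 0.0174), so that replicate 1 sat at the level of the highest control, and its call ended without day 2 replicate 2 (0.0815) or 3 (0.103). Dnajb1, the HSP40 partner of HSP70, had 9.25, 9.12 and 9.27 on day 2 against 7.71, 8.15 and 8.54 in controls, a 2.11-fold rise (1.08, SE 0.18, adjusted p = 0.000711), and its other probe set, not called, differed by 0.55. Hsp90ab1, the constitutive cytosolic HSP90, rose by 0.65 (SE 0.12, adjusted p = 0.0018), with its other probe set at 0.22 and not called. Hspa1a, the inducible HSP70, differed by 0.17 (SE 0.45) with overlapping groups, and Hspb8, a small heat shock protein of muscle, by -0.69 (SE 0.28), and neither was called (adjusted p = 0.838 and 0.0921).

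**Figure D2:**
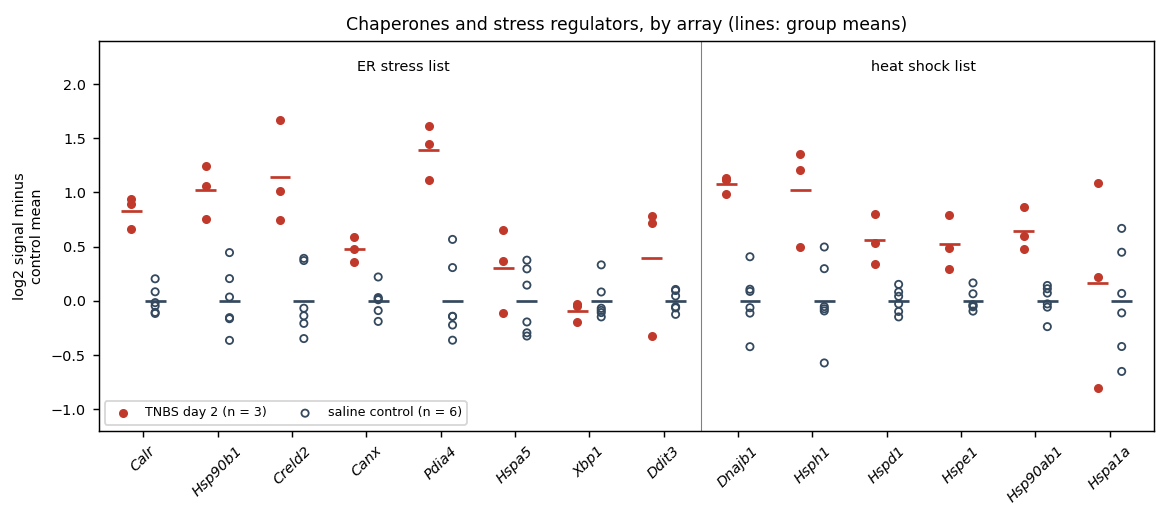
Log2 signal minus the control mean (vertical axis) of 14 chaperone and stress genes, with the 3 day 2 arrays left of the 6 control arrays for each gene and horizontal bars at the group means. Calr lies at 0.66, 0.90 and 0.94 on day 2, clear of the controls, while Hspa5 lies at -0.11, 0.37 and 0.66 and overlaps them.

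The other searches, 8 in all, were the following. An NF-kB site (GGGA and CC with 4 free bases between) was in 8 of 13 members of its list called higher, in 1 of 1 called lower and in 3 of 5 not called, against 19.6% of all promoters. An antioxidant response element (TGACNNNGC) was in 3 of 9 called higher and 2 of 12 not called, against 12.2%, and a metal response element (TGCACNC) in 2 of 5 called higher, 1 of 1 called lower and 2 of 14 not called, against 12.2%. In the clock list an E-box (CACGTG) was in 0 of 5 called members and 3 of 10 not called, against 6.65%. There a D-box (TTANGTAA) was in 0 of 5 called and 1 of 10 not called, against 2.19%. The 6-base core of the ROR element (AGGTCA), searched without flanking bases, was in 1 of 5 called and 1 of 10 not called, against 15.7%. In the complement list a C/EBP site (TTGCNNAA) was in 1 of 4 called higher and 3 of 10 not called, against 10.5%. In the smooth muscle list 1 fixed form of the CArG box (ATATTA between CC and GG) was in 0 of 23 members, against 0.0401%. That form lies in only 11 of 27457 promoters, so a count of 0 was likely beforehand. Other forms of the box were not searched, and the count says nothing on them.

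Clotting and fibrinolysis genes had 7 of 28 members called higher and 0 lower, with a median of 0.30. F3, tissue factor, which starts the clotting cascade, had 6.71, 7.90 and 7.41 on day 2 against 4.77, 5.21 and 5.59 in controls, a 4.48-fold rise with separate groups (2.16, SE 0.43, adjusted p = 0.00266). Plaur, the urokinase receptor, had 6.03, 6.16 and 6.22 against 4.30, 4.68 and 5.08 (1.45, SE 0.31, adjusted p = 0.00451), and its other probe set, not called, differed by 0.13. Its ligand Plau, urokinase, differed by 0.05 (SE 0.31) and was not called (adjusted p = 0.941). Plat, the tissue plasminogen activator, rose by 0.98 (SE 0.24, lost without day 2 replicate 3, adjusted p = 0.0769), and Pf4, the platelet chemokine, by 1.54 (SE 0.38, lost without day 2 replicate 2, 0.0896). Serpina3n, an inhibitor of serine proteases, rose by 1.77 (SE 0.50) and lost its call without day 2 replicate 2 (0.139) or 3 (0.118).

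The provisional matrix list, the scaffold and proteases of an early wound, had 9 of 29 members called higher, 2 lower and a median of 0.61. Mmp14, the membrane-bound collagenase that activates MMP2, had 9.48, 10.15 and 9.74 on day 2 against 7.90, 8.27 and 8.58 in controls (1.56, SE 0.22, adjusted p = 0.000283), again with no overlap, though its other probe set differed by 0.18 and was not called. Adam8, a leukocyte metalloprotease, rose by 2.10 (SE 0.48) and lost its call without day 2 replicate 2 (0.0588), and its other probe set differed by 0.17. Postn, periostin, fell by 0.86 (SE 0.20). Sparcl1, hevin, fell by 1.06 (SE 0.36, adjusted p = 0.0496), a call made again only without control replicate 2 or day 2 replicate 1 and otherwise at 0.0586 to 0.312. Tnc, the wound glycoprotein tenascin C, differed by 1.10 (SE 0.49) and was not called (adjusted p = 0.133).

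Growth factors and their receptors had 6 of 29 members called higher, 3 lower and a median of 0.00. Igfbp5, which binds insulin-like growth factors, had 9.70, 10.40 and 10.26 on day 2 against 7.38, 7.78 and 8.31 in controls, a 5.15-fold rise (2.37, SE 0.35, adjusted p = 0.000375). Igf1, its ligand, rose by 1.59 (SE 0.39), a call lost without day 2 replicate 2 (0.0575) or 3 (0.0596). Hbegf, a ligand of the EGF receptor, rose by 0.65 (SE 0.11) and Fgf10, a mesenchymal factor for epithelium, by 0.44 (SE 0.07). Fgf10 was at low signal, 3.87 to 4.03 on day 2 against 3.45 to 3.64 in controls. Tgfb1 rose by 1.25 (SE 0.31), lost without day 2 replicate 3 (0.0963). None of the 3 falls held. Bmp2, an epithelial differentiation signal, fell by 1.01 (SE 0.34, adjusted p = 0.0489), made again only without control replicate 6 or day 2 replicate 1 and otherwise at 0.0597 to 0.202, with its other probe set at -1.29 and not called. Egfr fell by 0.51 (SE 0.17) but was 0.32 higher as deposited, and was lost without control replicate 1, 2, 4 or 5 or day 2 replicate 2 or 3 (0.0576 to 0.192), with other probe sets at -0.18 and 0.06. Pdgfa fell by 0.83 (SE 0.25), lost without control replicate 1, 3 or 4 or day 2 replicate 2 or 3 (0.0507 to 0.135).

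Of 25 wound-edge epithelial genes, 6 were called higher, 1 lower and 2 higher calls held, with a median of 0.15. Under median centring that median was -0.09, where the median of all probe sets was -0.18. Itgb4, the integrin chain of hemidesmosomes, had 9.58, 9.10 and 9.05 on day 2 against 8.23, 8.51 and 8.71 in controls (0.77, SE 0.19, adjusted p = 0.00938). Krt17, a keratin of activated epithelium, rose by 0.47 (SE 0.13) and was lost without day 2 replicate 2 (0.0671) or 3 (0.108). Anxa3, an annexin, rose by 0.80 (SE 0.25) and was lost without control replicate 1, 3, 4 or 6 or day 2 replicate 2 or 3 (0.0588 to 0.224). Lamb3, a laminin chain, fell by 0.65 (SE 0.20), lost without control replicate 5 or 6 or day 2 replicate 2 or 3 (0.0504 to 0.145).

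Arginine and polyamine genes had 7 of 26 members called higher and 2 lower, with a median of 0.18. The enzymes that remake arginine from citrulline rose: Ass1 had 6.82, 7.62 and 7.33 on day 2 against 4.67, 5.73 and 6.22 in controls, a 3.08-fold rise (1.62, SE 0.33, adjusted p = 0.00346), and Asl rose by 0.95 (SE 0.24, lost without day 2 replicate 2, 0.0837). Arg2 had 4.47, 4.18 and 4.57 on day 2 against 5.13, 6.21 and 6.99 in controls (-1.78, SE 0.36, adjusted p = 0.00318). In Ass1 all day 2 arrays were above the controls, while Arg2 had been chosen for its separate groups. Oaz1, antizyme, which marks ornithine decarboxylase for destruction, had 11.13, 11.52 and 11.63 against 10.30, 10.43 and 10.77 (0.94, SE 0.13, adjusted p = 0.000212). Odc1, that decarboxylase, differed by 0.05 (SE 0.16) and Arg1, the cytosolic arginase, by 1.16 (SE 0.58), and neither was called (adjusted p = 0.875 and 0.178). Prodh, proline dehydrogenase, rose by 0.65 (SE 0.14), with its other probe set at 0.18 and not called. Ddah1, which degrades inhibitors of nitric oxide synthase, fell by 0.68 (SE 0.21), lost without control replicate 1 (0.0579) or 5 (0.0553) or day 2 replicate 3 (0.216).

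In the prostanoid and leukotriene list 6 of 26 members were called higher and 1 lower, with a median of 0.29. Pla2g5, a secreted phospholipase A2 at low signal, had 5.03, 5.04 and 4.65 on day 2 against 3.56, 3.77 and 4.08 in controls (1.10, SE 0.12, adjusted p = 3.51e-05), and all 3 day 2 rats were higher. Ptger2, a prostaglandin E2 receptor, rose by 0.68 (SE 0.12), and Lta4h, which makes leukotriene B4, by 0.49 (SE 0.12, lost without day 2 replicate 2, 0.0653). Hpgds, the haematopoietic prostaglandin D synthase, fell by 0.59 (SE 0.17) but was 0.18 higher as deposited, and was lost without control replicate 4 or any day 2 array (0.0519 to 0.103). The single call among 15 tryptophan and serotonin genes was a fall of Slc6a4, the serotonin transporter, with 5.59, 5.01 and 4.95 on day 2 against 6.17, 6.41 and 6.75 in controls (-1.24, SE 0.23, adjusted p = 0.00172), and 0 were called higher by limma.

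Amino acid transporters had 4 of 23 members called higher, 0 lower and a median of 0.29. Slc7a8, a light chain for large neutral amino acids, rose by 0.94 (SE 0.20). The other 3 calls did not hold. Slc3a2, the heavy chain these carriers share, rose by 0.44 (SE 0.15, adjusted p = 0.0495) and was lost without control replicate 1, 2, 4 or 6 or day 2 replicate 2 or 3 (0.0575 to 0.236). Slc7a9, a cystine carrier, rose by 0.44 (SE 0.14) and was lost without control replicate 2, 5 or 6 or any day 2 array (0.0547 to 0.119). Slc6a6, the taurine transporter, rose by 0.54 (SE 0.15) and was lost without day 2 replicate 1 (0.0638) or 3 (0.0576), while its other probe set was called the opposite way at -0.83.

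Ribosome biogenesis genes rose together in 10 of 25 measured members, with 0 called lower, 3 calls that held and a median of 0.46, and the medians of the list in day 2 replicates 1, 2 and 3 were 0.14, 0.31 and 0.82. Dkc1, the pseudouridine synthase dyskerin, had 7.61, 6.90 and 7.80 on day 2 against 4.98, 5.60 and 6.24 in controls, a 3.60-fold rise (1.85, SE 0.26, adjusted p = 0.000283). All day 2 arrays exceeded all controls, with replicate 1 the middle of the 3. Nop16, a nucleolar protein, rose by 1.00 (SE 0.18), and Rrp1b, a ribosomal RNA processing factor, by 0.85 (SE 0.18), while other Rrp1b probe sets ran from -0.24 to 0.38. Bop1 and Ftsj3, factors of the large subunit, rose by 0.68 (SE 0.15) and 0.70 (SE 0.17), both lost without day 2 replicate 3 (adjusted p = 0.0581 and 0.0745).

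Cell cycle genes followed with 5 of 31 called higher (16.1%, against 11.4% of all genes), 1 lower and a median of 0.40, and replicate medians of 0.01, 0.34 and 0.79. Aurka, the mitotic kinase Aurora A, rose by 1.00 (SE 0.21), and Gadd45g, a stress-induced growth arrest gene, 4.03-fold (2.01, SE 0.40, adjusted p = 0.00272). Mcm2, a replication helicase subunit, rose by 1.05 (SE 0.28), lost without day 2 replicate 3 (0.136). Cdc20, an activator of mitotic degradation, rose by 0.93 (SE 0.28), lost without control replicate 1 or 6 or day 2 replicate 2 or 3 (0.0527 to 0.189), with other probe sets between -0.13 and 1.77. Ccnb2, a mitotic cyclin, rose by 0.78 (SE 0.26), lost without control replicate 1, 2, 3 or 6 or day 2 replicate 2 or 3 (0.0535 to 0.211). Ccnd1, cyclin D1, fell by 0.48 (SE 0.11), lost without day 2 replicate 2 (0.0511) or 3 (0.0545), and its other probe sets differed by 0.18 to 0.60. Markers of T cells and of B and plasma cells were high in the same replicate 3 in which both lists were highest: the mean marker difference from control was 1.93 for T cells and 2.19 for B and plasma cells there, against -0.30 and -0.48 in replicate 1 and -0.08 and -0.42 in replicate 2. Their part in these lists was not tested.

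Cholesterol synthesis had 3 of 23 members called higher, 0 lower and a median of 0.12, or -0.03 under median centring. Mvk, mevalonate kinase, rose by 0.79 (SE 0.13), though its 2 other probe sets differed by 0.01 and 0.03 and were not called. Fdps, farnesyl diphosphate synthase, rose by 0.78 (SE 0.16). Tm7sf2, a sterol reductase, rose by 0.60 (SE 0.19), lost without control replicate 1, 2 or 6 or day 2 replicate 2 or 3 (0.0642 to 0.166).

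Lysosome and phagocytosis genes rose widely: 17 of 29 were called higher (58.6%), 0 lower, 9 calls held and the median was 0.66. Lgmn, the lysosomal protease legumain, had 9.25, 10.43 and 10.04 on day 2 against 7.82, 8.10 and 8.43 in controls (1.80, SE 0.27, adjusted p = 0.000455), while its other probe set differed by 0.04 and was not called. Fcer1g, the signalling chain shared by several Fc receptors, had 8.40, 10.33 and 9.87 on day 2 against 6.96, 7.12 and 7.68 in controls, a 4.98-fold rise (2.32, SE 0.37, adjusted p = 0.000574). The scavenger receptors of resident macrophages rose as well, Mrc1 by 2.16 (SE 0.35) and Cd163 by 2.09 (SE 0.35). In each of these 4 genes replicate 2 was the highest day 2 array and replicate 1 the lowest.

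Complement genes had 7 of 20 members called higher, 0 lower, 4 calls that held and a median of 0.30. Besides C3, the inhibitor Serping1 rose by 1.60 (SE 0.22), the protease C1s by 1.15 (SE 0.17) and the recognition subunit C1qa by 1.12 (SE 0.21). The receptor C5ar1 rose by 1.67 (SE 0.43), lost without day 2 replicate 2 (0.0957) or 3 (0.0716). Of 30 cytoskeletal genes 12 were called higher and 2 lower, with 5 higher calls that held and a median of 0.29. Under median centring that median was -0.01, where the median of all probe sets was -0.18. Msn, moesin, which links actin to the membrane of leukocytes and endothelium, had 8.50, 10.10 and 10.16 on day 2 against 7.47, 7.61 and 8.22 in controls (1.88, SE 0.34, adjusted p = 0.00142), whereas its epithelial relative Ezr, ezrin, fell by 0.61 (SE 0.16), lost without day 2 replicate 2 (0.108). Myo1f, a leukocyte myosin, rose by 1.73 (SE 0.22), and Cap1, an actin-binding protein, by 0.94 (SE 0.18), though the other Cap1 probe set differed by 0.12 and was not called. The other fall was a small one of Actg1, gamma actin (-0.21, SE 0.06), lost without day 2 replicate 2 (0.134) or 3 (0.0575), and its other probe set was called the opposite way at 0.76.

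Phagocyte markers were higher as well, but their lists share genes with the lists above. Cd68 and Gpnmb, among other macrophage markers, are also in the lysosome list, and C1qa, among others, is in the complement list. The neutrophil markers include yardstick genes such as those of calprotectin. Of 9 measured neutrophil markers 6 were called higher and 0 lower, and their mean difference from control was 1.19, 3.17 and 2.73 in day 2 replicates 1, 2 and 3 against -0.11 to 0.10 in controls. Of 17 macrophage markers 11 were called higher and 0 lower, with means of 0.52, 1.57 and 1.56 against -0.17 to 0.11. Their part in the NF-kB, lysosome, complement and cytoskeleton results was not tested. In homogenised tissue, a change in the number of cells of a type and a change in RNA per cell cannot be told apart.

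Interferon-response genes had 2 of 26 members called higher on day 2 (7.69%, against 11.4% of all genes) and 0 lower. Their median of 0.26 was above the -0.01 of all genes. Neither call held: Tap1, a peptide transporter for MHC class I, rose by 1.06 (SE 0.32), lost without control replicate 1 or 4 or day 2 replicate 2 or 3 (0.0539 to 0.231), and Stat2, an interferon signal transducer, by 0.49 (SE 0.16), lost without control replicate 1, 2, 4, 5 or 6 or day 2 replicate 2 or 3 (0.0604 to 0.233), its other probe set standing at 0.14. Ifit3 had 3.85, 4.58 and 4.25 on day 2 against 3.32, 3.39 and 3.46 in controls, and although the groups were separate it was not called (0.83, SE 0.37, adjusted p = 0.126). Isg15 differed by -0.01 (SE 0.39, adjusted p = 0.99; 0.73 as deposited).

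Of the lists described next, 8 had medians below 0 on the quantile-normalized scale and above 0 as deposited, though still below the deposited median shift of 0.59. As deposited these medians were 0.08 for ion transport and for epithelial identity, 0.10 for smooth muscle, 0.13 for fatty acid oxidation, 0.34 for xenobiotic metabolism, 0.35 for mitochondrial respiration, 0.37 for mast cells and 0.54 for the clock. The shift was smaller at high signal. Deposited array medians were 4.268 to 4.301 in controls and 5.032 to 5.063 on day 2, and 99th percentiles 10.886 to 10.938 and 11.156 to 11.221. For bright lists 0.59 is therefore too large a reference.

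Of 33 measured ion transport genes of the colon, 4 were called higher and 4 lower (12.1% each), shares near those of all genes, and the median was -0.24. Best2, a bicarbonate-conducting chloride channel of goblet cells, had 7.71, 7.39 and 7.88 on day 2 against 5.73, 6.25 and 6.87 in controls, a 2.59-fold rise (1.38, SE 0.31, adjusted p = 0.00588) with replicate 1 as high as the rest. Slc26a6, an anion exchanger, rose by 0.66 (SE 0.15). Scnn1b, the beta subunit of the epithelial sodium channel, had 6.81, 5.87 and 6.19 on day 2 against 4.80, 5.12 and 6.17 in controls (1.08, SE 0.26, adjusted p = 0.0096), where the highest control overlapped the lowest day 2 array. Scnn1g, the gamma subunit, rose by 0.51 (SE 0.13), lost without day 2 replicate 1 (0.0813).

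Slc26a3, the main chloride-bicarbonate exchanger of the colon surface, fell 3.16-fold, with 11.00, 8.82 and 9.51 on day 2 against 11.07, 11.41 and 11.82 in controls (-1.66, SE 0.42, adjusted p = 0.0119). Replicate 1 lay just below the lowest control, and the call ended without day 2 replicate 2 (0.094) or 3 (0.0636). Slc9a2, a sodium-proton exchanger, fell by 1.49 (SE 0.40), lost without day 2 replicate 2 (0.103) or 3 (0.0817). The steroid receptors fell too: Nr3c2, the mineralocorticoid receptor, by 1.09 (SE 0.30), lost without day 2 replicate 2 (0.0952) or 3 (0.145), and Nr3c1, the glucocorticoid receptor, by 0.70 (SE 0.22), lost without control replicate 4 (0.0615) or 6 (0.0515) or day 2 replicate 2 (0.15) or 3 (0.152), with its other probe set at 0.02.

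Of 34 epithelial identity genes 5 were called lower (14.7%, against 10.7% of all genes) and 1 higher, with a median of -0.30. Slc16a1, the carrier through which colonocytes take up butyrate, had 10.33, 9.32 and 9.65 on day 2 against 10.68, 10.80 and 11.18 in controls (-1.09, SE 0.21, adjusted p = 0.00248), but its other probe set differed by -0.09 and was not called. The other 4 falls did not hold, that of Klf4 among them. Krt20, a keratin of differentiated surface cells, fell by 0.83 (SE 0.25), lost without control replicate 3 or 4 or day 2 replicate 2 or 3 (0.0546 to 0.216), and Ocln, the tight junction protein occludin, by 0.67 (SE 0.20), lost without control replicate 4 or 5 or day 2 replicate 2 or 3 (0.0502 to 0.175). Fcgbp, a mucus component, fell by 0.96 (SE 0.32), lost without control replicate 1, 4, 5 or 6 or day 2 replicate 2 or 3 (0.0597 to 0.193). Anpep, an aminopeptidase of the brush border that myeloid cells also carry, rose by 1.67 (SE 0.45), lost without day 2 replicate 2 (0.106) or 3 (0.0858). Enterocyte markers averaged 0.17, -0.95 and -0.58 in day 2 replicates 1, 2 and 3 against -0.48 to 0.43 in controls, with 1 of 15 called higher and 2 lower, and goblet cell markers averaged -0.13, -0.62 and -0.52 against -0.20 to 0.22, with 0 of 9 higher and 1 lower. Every enterocyte marker is also in the epithelial identity or the ion transport list, and goblet cell markers such as Fcgbp are in the former. The marker levels are therefore no separate reading, and the part of cell content in the epithelial results was not tested.

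Xenobiotic metabolism had 5 of 38 members called lower (13.2%, near the 10.7% of all genes) and 1 higher, with a median of -0.28. The 2 falls that held were small and at low signal: Cyp2c11, a steroid hydroxylase best known from male liver, at -0.58 (SE 0.10), and Nr1i3, the receptor CAR, at -0.43 (SE 0.09), and both were higher as deposited, by 0.08 and 0.20. Cyp3a9 fell by 0.90 (SE 0.24), lost without day 2 replicate 2 (0.0964) or 3 (0.0873). Abcg2, an efflux pump, fell by 1.56 (SE 0.51), made again only without control replicate 5 or day 2 replicate 1 and otherwise at 0.0601 to 0.214. Hsd17b2, which inactivates sex steroids, fell by 1.53 (SE 0.51), made again only without control replicate 1 or day 2 replicate 1 and otherwise at 0.0561 to 0.205. Hsd11b1, which regenerates active glucocorticoid, rose by 1.24 (SE 0.42), made again only without day 2 replicate 1 and otherwise at 0.0557 to 0.238.

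Among 32 genes of mitochondrial respiration 6 were called lower and 2 higher, and the median was -0.05. Cyc1, cytochrome c1 of complex III, had 11.19, 10.99 and 11.01 on day 2 against 9.90, 10.00 and 10.09 in controls, a 2.09-fold rise (1.06, SE 0.13, adjusted p = 6.94e-05), and Dlst, of the oxoglutarate dehydrogenase complex, rose by 0.41 (SE 0.09). None of the 6 falls held. Sdhb, of complex II, fell by 0.66 (SE 0.16), lost without day 2 replicate 2 (0.0531) or 3 (0.0685), Ndufs1, of complex I, by 0.42 (SE 0.12), lost without day 2 replicate 2 (0.116), and the coactivator Ppargc1a by 1.49 (SE 0.43), lost without day 2 replicate 2 (0.156) or 3 (0.131), with its other probe sets at -0.68 and -0.36 and not called.

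Fatty acid oxidation had 5 of 26 members called lower and 2 higher, with a median of -0.31. Acadm, the medium-chain acyl-CoA dehydrogenase, had 9.56, 8.93 and 8.77 on day 2 against 9.96, 10.11 and 10.32 in controls (-1.06, SE 0.21, adjusted p = 0.00278), with every day 2 rat below every control. Acads, the short-chain enzyme that acts on butyrate, fell by 0.69 (SE 0.18), lost without day 2 replicate 2 (0.0628) or 3 (0.085). Cpt1b, the muscle carnitine transferase, fell by 0.41 (SE 0.11) but was 0.35 higher as deposited, and was lost without day 2 replicate 3 (0.0688). Echs1, a hydratase, fell by 0.38 (SE 0.12) but was 0.13 higher as deposited, and was lost without control replicate 1, 3 or 6 or day 2 replicate 2 or 3 (0.0523 to 0.174). Etfb, an electron carrier, fell by 0.42 (SE 0.14), made again only without control replicate 5 or day 2 replicate 1 and otherwise at 0.0527 to 0.235. The 2 rises were those of Cpt2, an inner-membrane carnitine transferase, by 0.90 (SE 0.23, lost without day 2 replicate 1, 0.0549) and of Slc25a20, the carnitine-acylcarnitine carrier, by 0.43 (SE 0.11, lost without day 2 replicate 2, 0.0575, or 3, 0.0587).

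Smooth muscle contraction genes had 8 of 29 members called lower (27.6%) and 1 higher, with a median of -0.32. Csrp1, a LIM protein of smooth muscle, had 10.46, 11.18 and 10.49 on day 2 against 11.55, 11.79 and 12.18 in controls (-1.10, SE 0.18, adjusted p = 0.000835). Tagln, the actin-binding protein SM22, had 12.17, 12.64 and 11.77 on day 2 against 12.90, 13.02 and 13.20 in controls (-0.84, SE 0.17, adjusted p = 0.00292). In both genes all day 2 arrays were below all controls. Smtn, smoothelin, fell by 1.18 (SE 0.29) and Tpm1, tropomyosin, by 0.73 (SE 0.17), both lost without day 2 replicate 3 (0.0932 and 0.0716). The other Smtn probe set differed by -0.72 and was not called, and 5 of the 6 other Tpm1 probe sets were not called. Chrm2, a muscarinic receptor, rose by 0.47 (SE 0.10). The list medians in replicates 1, 2 and 3 were -0.37, 0.20 and -0.87. The smooth muscle marker list averaged -0.33, 0.23 and -0.93 against -0.17 to 0.23 in controls. All 10 of its genes also belong to the contraction list, so it is no separate reading. The part of muscle content in this result was not tested. Among 7 markers of interstitial cells of Cajal, the pacemakers of the gut, 2 were called lower and 0 higher, but the median was 0.16. The marker means in replicates 1, 2 and 3 were -0.31, -0.02 and -0.06, against -0.10 to 0.16 in controls. Etv1, a transcription factor of these cells, had 6.16, 6.27 and 5.37 on day 2 against 6.60, 6.93 and 7.56 in controls (-1.07, SE 0.21, adjusted p = 0.00272). The 4 other Etv1 probe sets ran from -0.76 to 0.31, and 1 of them was also called lower. Ano1, their calcium-activated chloride channel, fell by 0.98 (SE 0.29), lost without control replicate 1 or 4 or day 2 replicate 2 or 3 (0.0538 to 0.166).

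Of 11 mast cell markers 5 were called lower and 0 higher, with a median of -0.31. Mcpt1 had 6.17, 5.77 and 5.78 on day 2 against 7.04, 8.52 and 9.70 in controls, a 5.90-fold fall (-2.56, SE 0.61, adjusted p = 0.00885). Cpa3, the mast cell carboxypeptidase, fell by 1.46 (SE 0.40), lost without day 2 replicate 2 (0.0824). The other 3 falls were small and turned round as deposited: Mcpt4, a chymase, at -0.50 (SE 0.13, lost without day 2 replicate 2, 0.0815) was 0.06 higher, Hdc, which makes histamine, at -0.49 (SE 0.12, lost without day 2 replicate 3, 0.0553) was 0.10 higher, and Gata2, a mast cell transcription factor, at -0.32 (SE 0.11) was 0.37 higher. The Gata2 call was made again only without control replicate 1 and otherwise gave 0.051 to 0.215, and its other probe set differed by -0.14.

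Of 17 clock genes 5 were called lower (29.4%) and 1 higher, with a median of -0.25. Nr1d1 had 5.78, 5.30 and 4.26 on day 2 against 6.59, 7.36 and 7.73 in controls, a 4.39-fold fall (-2.13, SE 0.36, adjusted p = 0.00102). Its relative Nr1d2 fell by 1.19 (SE 0.30) and the period gene Per3 by 1.12 (SE 0.28), both lost without day 2 replicate 3 (0.081 and 0.0857), and the other Per3 probe set differed by -0.17 and was not called. Npas2, an activator of the loop, fell by 1.58 (SE 0.43), lost without day 2 replicate 2 (0.0921) or 3 (0.119). Hlf, an output factor, fell by 0.48 (SE 0.12) but was 0.36 higher as deposited, and was lost without day 2 replicate 3 (0.0961). Nfil3, a repressor that opposes such output factors, rose by 1.09 (SE 0.30), lost without day 2 replicate 2 (0.118). The hour of day at which either group was taken is not given, so it and the treatment cannot be told apart in these genes.

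All TNBS days share the same 6 control arrays, so their differences from control are given side by side. For Nr1d1 the differences on days 2, 5, 7 and 14 were -2.13, -1.64, -1.73 and -1.73, and for Csrp1 -1.10, -1.27, -1.07 and -1.13, so neither was nearer to control on day 14 than on day 7. Amn stood at -2.33, -2.37, -2.26 and -0.62, Slc26a3 at -1.66, -1.50, -1.47 and -0.45, Slc16a1 at -1.09, -0.91, -1.38 and -0.30, and Acadm at -1.06, -1.16, -1.04 and -0.18. These 4 epithelial and metabolic genes were closest to control on day 14. Best2 stood at 1.38, 0.24, -0.33 and -0.15 and Scnn1b at 1.08, 0.41, -0.32 and -0.03, highest on day 2 of the 4 days.

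Tested over all probe sets, day 2 against the mean of days 5, 7 and 14 gave only 1 probe set called higher (0.00322% of 31042) and 2 called lower (0.00644%), while 2563 had an unadjusted p under 0.05 in limma. Pla2g5 was the gene called higher, with 5.03, 5.04 and 4.65 on day 2 against a lowest of 3.46, a median of 3.78 and a highest of 4.37 on the 9 later arrays (1.00, SE 0.12, adjusted p = 0.00753). Its signal was low, and the count of higher calls was 0 with the lowest 50% of probe sets left out. No later array reached the lowest day 2 array. Myo1e, a membrane-linked myosin, was called lower, with 6.79, 6.12 and 6.79 on day 2 against 7.31, 7.50 and 7.80 on later days (-0.95, SE 0.14, adjusted p = 0.0303), and it was also below control on day 2 (-1.42, SE 0.14, adjusted p = 1.27e-05). Ifit3 was the other gene called lower (-2.58, SE 0.35, adjusted p = 0.0218), standing at 0.83, 4.40, 5.49 and 0.35 above control on days 2, 5, 7 and 14, so day 2 overlapped the later arrays through day 14. The rise of Best2 over the later days was not called (1.46, SE 0.29, adjusted p = 0.215), although its day 2 arrays lay above all 9 later arrays. Which probe sets were called hung on single arrays: the count of higher calls was 0 without day 2 replicate 1 or 2, 6 without day 5 replicate 2, 5 without day 7 replicate 2 and 2 without day 7 replicate 1 or day 14 replicate 2. The count of lower calls was 0 without any single day 2 array, day 7 replicate 3 or day 14 replicate 1, 1 without day 5 replicate 3, 4 without day 5 replicate 1 or day 14 replicate 2, 6 without day 5 replicate 2 and 23 without day 7 replicate 2.

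**Figure D3:**
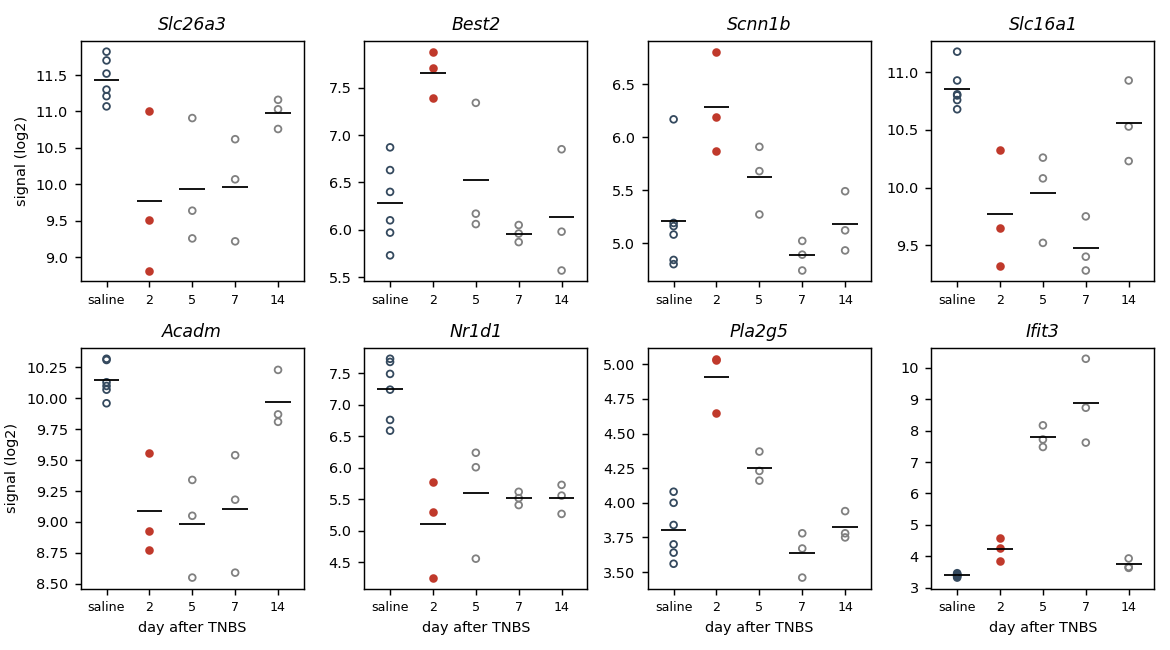
Log2 signal of 8 genes (vertical axis) in saline controls and on days 2, 5, 7 and 14 after TNBS, with a point per array and a horizontal bar at each group mean. Nr1d1 stays below the controls on all 4 days, Best2 and Pla2g5 are highest on day 2, and Ifit3 is highest on days 5 and 7.

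The differences among the 3 day 2 rats ran through many lists. Among genes called higher without replicate 1 (1972, or 13.9% of genes), the median difference from control was 0.34 in replicate 1 and 0.74 in replicates 2 and 3, and 89.1% had the same sign in replicate 1. Among genes called lower without it (1791, or 12.6%), the medians were -0.30 in replicate 1 and -0.71 in the other 2, with 86.5% of the same sign. Leaving out replicate 2 left 963 higher and 840 lower calls (6.77% and 5.91%), and leaving out replicate 3 left 894 and 719 (6.29% and 5.06%). In the lists, the members called higher without replicate 1, 2 or 3 were 14, 8 and 7 for NF-kB and STAT3, 18, 9 and 10 for lysosomes, and 10, 6 and 7 for antioxidants. They were 14, 6 and 3 for ribosome biogenesis, 13, 3 and 4 for the provisional matrix, 14, 6 and 6 for the cytoskeleton and 9, 3 and 3 for hypoxia. Folding genes gave 10, 5 and 6 for the unfolded protein response and 6, 4 and 3 for heat shock, while interferon genes gave 8, 0 and 0. Members called lower were 12, 1 and 1 for epithelial identity, 8, 7 and 2 for smooth muscle, 6, 4 and 1 for the clock and 4, 2 and 3 for mast cells. Thus most list counts were larger without replicate 1 and smaller without replicate 2 or 3. Epithelial and muscle marker levels also differed among the rats: smooth muscle markers were above the control mean in replicate 2 only, enterocyte markers were above it in replicate 1 only, and lymphocyte markers were above it in replicate 3 only. Control replicate 2 had B and plasma cell markers 1.52 above the control mean, against -0.51 to -0.20 in the other 5 controls.

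**Figure D4:**
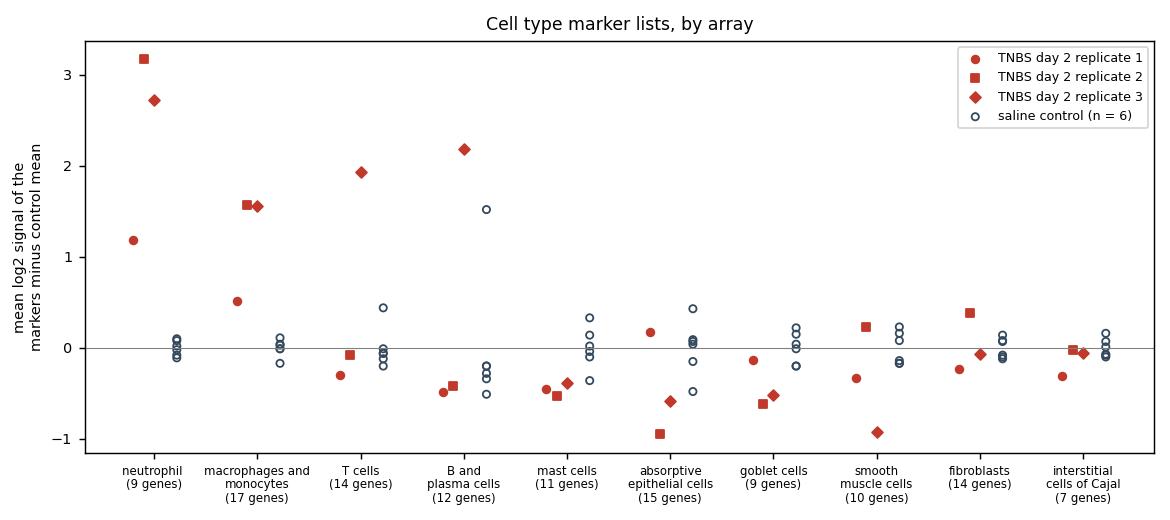
Mean log2 difference from the control mean (vertical axis) of 10 cell type marker lists in each of the 3 day 2 arrays, left, and the 6 control arrays, right. Neutrophil markers are at 1.19, 3.17 and 2.73 on day 2 against -0.11 to 0.10 in controls, and T cell and B and plasma cell markers are high in day 2 replicate 3 alone among the day 2 arrays.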

How the data were processed

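Total RNA of full-thickness colon was read on 18 arrays, with 1 table of 31099 probe sets deposited for the series. Per the labels' design text the authors normalized the arrays with the Bioconductor package affyPLM; the version, background method and log base are not stated in the labels used here. From their range the deposited numbers were taken as log2 values. Without the 57 array control probe sets 31042 remained, of which 20826 carry 1 gene symbol (14217 genes), 436 several and 9780 none listed. Groups came from the sample titles.

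Values were quantile-normalized over the 18 arrays, because control and TNBS arrays differ in distribution, a step that also removes any shift common to most genes. limma 3.58.1 (R 4.3.3) fitted 1 coefficient per group (13 residual degrees of freedom), with two-sided tests of day 2 minus control (3 against 6 arrays) and of day 2 minus the mean of days 5, 7 and 14 (9 arrays), and calls at a Benjamini-Hochberg adjusted p under 0.05. The number of arrays limits the precision. Counting and figures used Python 3.11.15 and pandas 2.3.3, and the fit was tested on simulated data.

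The 30 gene lists, 19 marker lists and all named genes were chosen with earlier results of these data known, and lists are described by counts and medians, with no list test. The text names genes from 3 sources: the 12 largest rises and falls among called genes without overlap and with 1 sign on 3 scales, inflammatory yardstick genes excluded; up to 5 members of each list by adjusted p with its largest rise and fall; and genes called against the later days. Not all of these are named. Chosen after their values were seen were Fos, Il6r, Socs3, Gpx2, Nqo1, Mt2A, Vegfa, Slc2a1, Ero1a, Hspa5, Ddit3, Xbp1, Hspa1a, Plau, Tnc, Asl, Odc1, Arg1, Ifit3, Isg15, Slc9a2, Nr3c2, Nr3c1, Npas2, Cpa3, Etv1, Ano1, Mrc1, Cd163, Nfkbiz, Edem1, Egfr, Pdgfa, Ddah1, Echs1, Etfb, Actg1, Ccnb2, Mcpt4, Hdc and Gata2, together with Dnaja1, Dnajc3 and Ero1b, which are named for their promoters alone. Alternatives were 3 other scalings, filters at the lowest 25% and 50%, another prior, array weights, a fit of the groups compared, 1 probe set per gene, blocking on replicate number, an adjusted p under 0.01 and each array left out; counting calls made in all 9 such fits was added after the data were seen.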

Additional observations from a re-analysis of the deposited data

Results flagged for a closer look

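Against the mean of days 5, 7 and 14, day 2 differed by a limma test of that difference for Pla2g5 (1.00, higher on day 2), Ifit3 (-2.58) and Myo1e (-0.95), both lower on day 2.

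Dixon's test was used to look for a sample far from the others in 212 sets of 6 control values. It found such a sample in 12 sets, near the chance rate of about 1 in 20. Control replicate 2 was high for Plek (6.21), for T cell markers (0.44 above the control mean) and for B and plasma cell markers (1.52 above it). Control replicate 1 was high for Slfn4 (6.11) and low for Hmox1 (5.07). Control replicate 3 was high for Stat2 (6.92) and Scnn1b (6.17). Control replicate 5 was low for Drc3 (7.80) and enteric neuron markers (-0.37) and high for Nfkb2 (6.48). Control replicate 6 was high for Ero1a (7.65) and Nfkbiz (7.60).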

How the results depend on the processing

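The scale of the values moved the counts against control most: 25703 probe sets were called higher and 163 lower as deposited, and 2533 higher and 9756 lower after median centring, so that the share of higher among all calls was 48.1% on the quantile-normalized scale, 99.4% as deposited and 20.6% after median centring. The counts of higher and lower calls were 1843 and 1800 with the replicate block, 1648 and 1553 with 1 probe set per gene, and 1386 and 1233 at an adjusted p under 0.01. With 1 array left out they ran from 1599 to 3301 and from 1458 to 3513, and 1198 and 1023 were called in each of those fits. Same-numbered day 2 and control arrays had correlations of 0.31, -0.02 and 0.079 between their deviations for replicates 1, 2 and 3. With day 5 arrays they were 0.469, 0.418 and -0.2, and with day 7 arrays -0.329, -0.032 and -0.171. With day 14 arrays they were 0.145, 0.054 and -0.21. These values do not settle whether replicate numbers pair the arrays, so the block was kept as an alternative. Quantile normalization of the 9 arrays alone, filters on low values, trend and robust priors, array weights and a fit of only the groups compared kept both counts within 1.5 times. Of the 192 named gene values against control, the block ended 64 calls and the stricter threshold 72.

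Against the later days, the higher count was 0 with the lowest 50% left out or only the groups compared, and 0 to 6 with 1 array left out. The lower count was 1 as deposited, after median centring and with the replicate block, 0 at an adjusted p under 0.01 or with only the groups compared, and 0 to 23 with 1 array left out. Quantile normalization of the 9 day 2 and control arrays alone could not be applied there.

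Named genes whose direction turned as deposited, where the median probe set differed by 0.59, were Xbp1 (0.30), Hlf (0.36), Socs1 (0.50), Edem1 (0.14), Egfr (0.32), Hpgds (0.18), Nr1i3 (0.20), Cyp2c11 (0.08), Cpt1b (0.35), Echs1 (0.13), Mcpt4 (0.06), Hdc (0.10) and Gata2 (0.37). The differences of Vegfa (0.15) and Isg15 (0.73), not called on the quantile-normalized scale, turned as well. The 3 day 2 arrays limit the precision of every value, and no detection call per probe set was used here.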
